A study of Mus musculus with 9 samples.

Results

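The 10 genes described here, which handle calcium, magnesium and salt in the distal convoluted and connecting tubule of the mouse kidney, were followed across 3 groups of whole kidney RNA libraries. They are S100g, Calb1, Trpv5, Slc8a1, Trpm6, Pvalb, Slc12a3, Cnnm2, Klk1 and Wnk1, 10 of the 55359 genes in the count table, and all 10 were abundant enough to be tested. The members were chosen by name from this segment of the nephron, with earlier results of the same libraries known, among them the low level of S100g in the diabetic model. Their differences between groups are therefore a description of these libraries, and the p-values printed beside them, which come from a fit over all 17179 genes tested, support nothing about the members as a list.

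The NCD vehicle group (3 libraries) came from mice on a normal calorie diet with 11.32% of calories from fat. The HFD-STZ vehicle group (3 libraries) ate a diet with 49.0% of calories from fat and was injected intraperitoneally with streptozotocin, a toxin of pancreatic beta cells, at 30 mg/kg on days 60 and 63. The HFD-STZ DHZ group (3 libraries) had the same diet and injections and then 50 mg/kg of dehydrozingerone (DHZ), a phenolic compound of ginger, by mouth for 2 weeks. All mice entered the diets at 6 weeks of age, and blood glucose was tested on day 65 in the injected mice. The sources used here give neither sex nor strain and do not state that each library came from a separate mouse, so p-values reflect the spread between libraries, which may be technical in part. Each group held libraries with and without Y-linked transcripts, as given below, so no group came from a single mouse. The compound's name stands in the treatment field of all 9 libraries, and groups were read from the titles. Batch dates in the labels differ from library to library and run in the order of the groups, so group and batch cannot be told apart.

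The distal convoluted tubule reabsorbs sodium chloride through the thiazide-sensitive cotransporter NCC and magnesium through TRPM6, and its late part and the connecting tubule reabsorb calcium across the cell. Calcium enters from the urine through TRPV5, is carried through the cytosol by calbindins, and leaves on the blood side through the sodium-calcium exchanger and the plasma membrane calcium pumps. Active vitamin D, acting through its nuclear receptor, is a known inducer of the calbindins and of TRPV5 in this tissue.

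The 9 libraries held 15.1 to 47.5 M counts (M for mega), of which the 10 members took 12251 to 88553. HFD-STZ vehicle 2 stood apart: 60.4% of its counts were mitochondrial (39.2% to 52.4% in the other libraries), it detected the fewest genes (19397), and its 12251 member counts were the fewest. Y-linked transcripts were present in NCD vehicle 1, HFD-STZ vehicle 2 and 3 and HFD-STZ DHZ 3 (36.5 to 106 counts per M of the total) and at most 0.209 in the other libraries, so libraries with and without them lay in every group. The groups were not balanced in this, with 1, 2 and 1 such libraries, and the main fit has no term for it. Xist, the X-linked sex check, was at 0.0872 to 1.89 CPM in the libraries with Y-linked transcripts and at 355 to 632 CPM in the others. All 8 proximal tubule markers, all 5 thick ascending limb markers and all 7 markers of the distal convoluted and connecting tubule, each a member, were detected. The 5 thick ascending limb markers summed to 551 to 1181 CPM in NCD vehicle, 695 to 1620 under HFD-STZ vehicle and 1039 to 2230 with HFD-STZ DHZ. The 6 principal cell markers summed to 64.0 to 93.7, 50.6 to 101.8 and 42.0 to 53.2 CPM in the same order, and the part of either cell type in the results below was not tested. CPM here are counts per M counts of a library size that was scaled by TMM, the trimmed mean of log ratios between libraries. The scaling factor was 0.327 in HFD-STZ vehicle 2 and 0.715 to 1.63 in the other libraries, so the CPM printed depend on it.

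S100g encodes calbindin-D9k, a small cytosolic calcium carrier, and its promoter is shown because it is the member with the widest range and a textbook target of vitamin D and estrogen receptors. The 250 bases before its RefSeq start lie on the minus strand at chrX:162964600-162964849 of GRCm38.p6, an older build than the GRCm39 of the counts. Capitals mark the nuclear receptor half-site AGGTCA or its reverse complement TGACCT.

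S100g promoter: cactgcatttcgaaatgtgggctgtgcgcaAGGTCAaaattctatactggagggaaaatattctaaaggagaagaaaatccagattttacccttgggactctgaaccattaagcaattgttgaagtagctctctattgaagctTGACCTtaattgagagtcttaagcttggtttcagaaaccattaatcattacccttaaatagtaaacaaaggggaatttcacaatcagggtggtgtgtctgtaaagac

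The half-site on the strand shown lay 220 to 215 bases before the start, and the one on the opposite strand 107 to 102 bases before it. At least 1 half-site was found on either strand in 14% of 32851 promoter windows of this length, and 2 or more in 1.36%. Among the members, S100g and Klk1 held the half-site, and no member held AGGTCA as a direct repeat 3 bases apart (0.00609% of windows) or GGTCA as a palindrome with TGACC 3 bases apart (0.0639%). Such matches describe letters, not binding sites. RefSeq promoters were matched by symbol for 9 of the 10 members, without Calb1.

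In the diabetic model, S100g had the largest difference of the members, and it was the only 1 of the 10 called at an adjusted p below 0.05 (HFD-STZ vehicle against NCD vehicle), where 0.0524% of all genes tested were called. Its groups did not overlap, as was so for 6 of the 10 members against 11.4% of all genes. The members' median log2 fold change was 0.15 beside -0.0031 over all genes tested, and S100g, Calb1, Trpv5 and Klk1 had negative values while the other 6 had positive ones. With library size as the only scaling the median of all genes moved to -0.737, and 5 of those 6 turned negative, Slc8a1 (-0.682), Cnnm2 (-0.562), Wnk1 (-0.46), Trpm6 (-0.309) and Slc12a3 (-0.147), each still above that median.

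S100g was at 337, 461 and 385 CPM in NCD vehicle 1 to 3. It was at 41.6, 42.0 and 58.0 CPM in HFD-STZ vehicle 1 to 3, and at 61.8, 76.2 and 50.5 CPM in HFD-STZ DHZ 1 to 3. Every library of both diabetic groups lay far below every NCD vehicle library, and the diabetic groups overlapped each other. The group means were 394 ± 62.4 CPM in NCD vehicle, 47.2 ± 9.39 under HFD-STZ vehicle and 62.8 ± 12.9 with HFD-STZ DHZ (SD, n = 3 each), so the mean was 8.36-fold lower in HFD-STZ vehicle and 6.28-fold lower in HFD-STZ DHZ than in NCD vehicle. On the log2 scale S100g fell by 3.06 (SE 0.28, edgeR adjusted p = 0.00095) in HFD-STZ vehicle and by 2.65 (SE 0.28, edgeR adjusted p = 0.00309) in HFD-STZ DHZ, both against the same NCD vehicle libraries. Between the diabetic groups the difference was 0.41 (SE 0.26, edgeR adjusted p = 0.271), within the spread of the libraries. Without HFD-STZ vehicle 2 the difference from NCD vehicle was -2.98 (edgeR adjusted p = 0.011), and over 14 alternative settings the call was kept, with differences from -3.84 to -2.94 and adjusted p up to 0.019. In whole tissue, fewer cells of a type and less RNA per cell cannot be told apart.

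**Figure D1:**
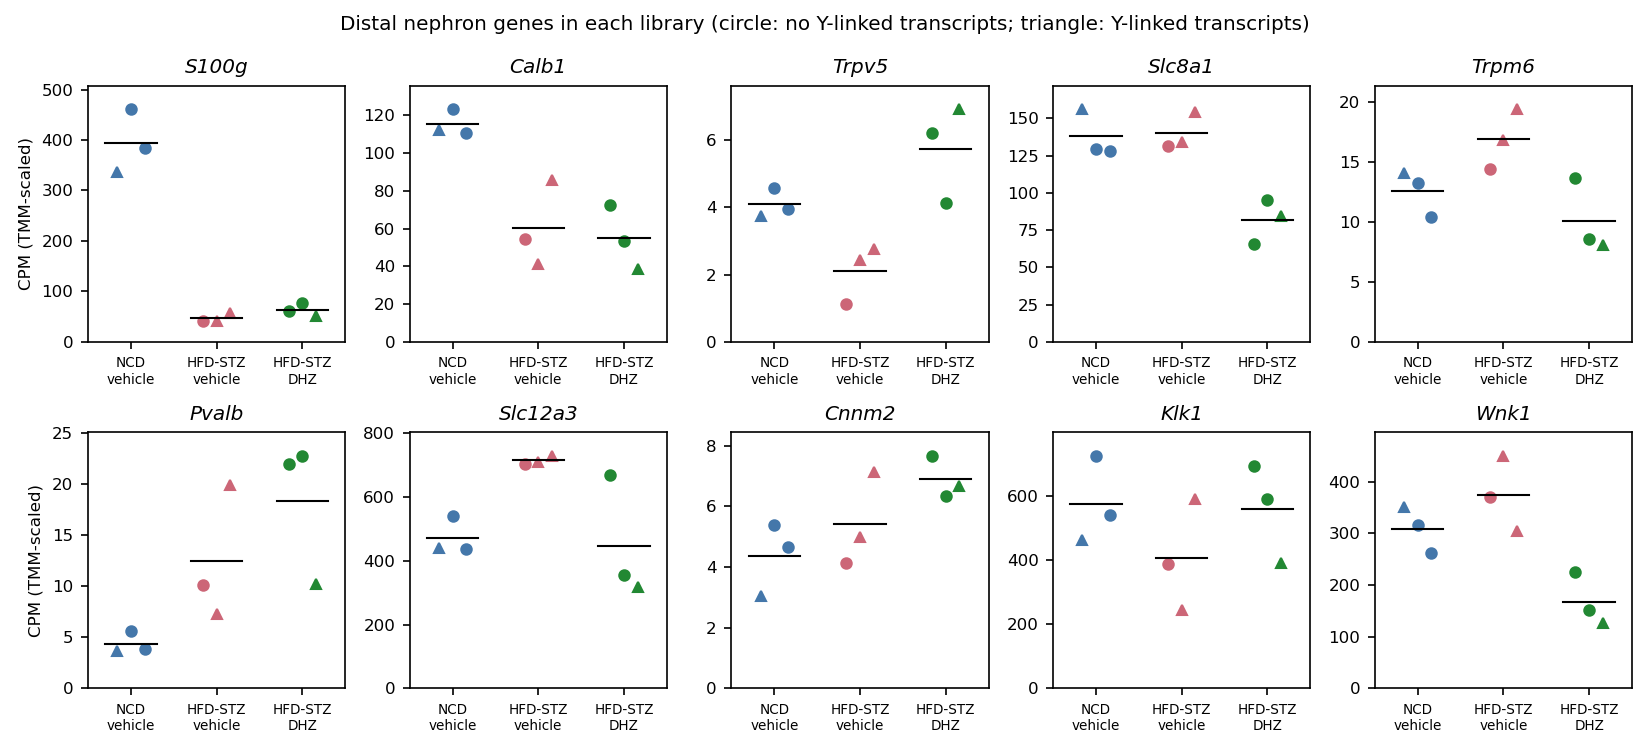
Level of each of the 10 genes in each of the 9 libraries (CPM, linear axes from 0; 1 panel per gene, 1 point per library, triangles for libraries with Y-linked transcripts, horizontal line at the group mean). The 3 NCD vehicle libraries of S100g sit between 337 and 461 CPM and all 6 diabetic libraries between 41.6 and 76.2, while Slc8a1 and Wnk1 are lowest in the HFD-STZ DHZ libraries.

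S100g lies inside Ctps2, a CTP synthase gene on the opposite strand with 0 shared exon bases in the GENCODE M21 annotation of the older build. Ctps2 itself averaged 10.4, 11.98 and 11.6 CPM in the 3 groups, with a log2 fold change of 0.19 (edgeR adjusted p = 0.814) in HFD-STZ vehicle against NCD vehicle.

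Calb1, the larger cytosolic calcium carrier calbindin-D28k, was at 112, 123 and 111 CPM in NCD vehicle 1 to 3. It was at 54.3, 41.3 and 85.8 CPM in HFD-STZ vehicle 1 to 3 and at 72.5, 53.2 and 38.8 CPM in HFD-STZ DHZ 1 to 3. All 6 diabetic libraries lay below the 3 NCD vehicle libraries. The log2 fold change was -0.93 (SE 0.30, edgeR adjusted p = 0.484) in HFD-STZ vehicle and -1.07 (SE 0.30, edgeR adjusted p = 0.0364) in HFD-STZ DHZ, both against NCD vehicle, so only the second was called, and it was lost without any 1 of the 3 NCD vehicle or the 3 HFD-STZ DHZ libraries. Between the diabetic groups it was -0.14 (SE 0.30, edgeR adjusted p = 0.756), a sign that turned without HFD-STZ vehicle 3 (0.205), without HFD-STZ DHZ 3 (0.0604) and with library size as the only scaling (0.576).

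Set against Slc12a3 in the same library, which removes the scaling between libraries, S100g gave 76.7, 85.5 and 88.5 counts per 100 counts of Slc12a3 in NCD vehicle 1 to 3. The ratio was 5.90, 5.91 and 7.96 in HFD-STZ vehicle 1 to 3 and 9.22, 21.5 and 15.8 in HFD-STZ DHZ 1 to 3. The 3 groups did not overlap in this ratio, with a mean of 15.5 ± 6.15 for HFD-STZ DHZ between 6.59 ± 1.19 for HFD-STZ vehicle and 83.6 ± 6.14 for NCD vehicle (SD, n = 3 each). S100g also gave 341 ± 37.8 counts per 100 counts of Calb1 in NCD vehicle, 81.9 ± 17.6 under HFD-STZ vehicle and 119.5 ± 30.4 with HFD-STZ DHZ (SD, n = 3 each). The smaller calbindin was thus lower relative to the larger one in the diabetic libraries, besides being lower itself. These ratios show unequal change between 2 transcripts and not which of them moved.

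**Figure D2:**
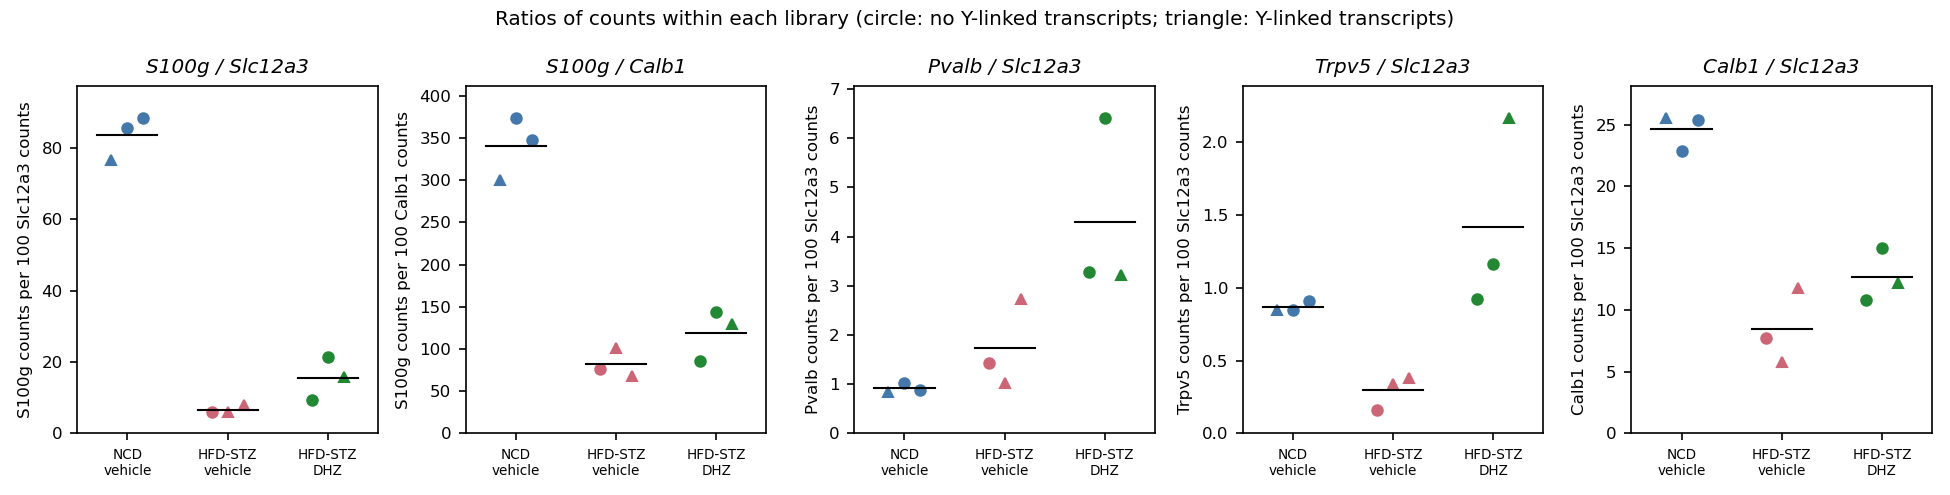
Counts of S100g, Pvalb, Trpv5 and Calb1 per 100 counts of Slc12a3, and of S100g per 100 counts of Calb1, in each library (linear axes from 0; 1 panel per ratio, 1 point per library, triangles for libraries with Y-linked transcripts, horizontal line at the group mean). S100g over Slc12a3 goes from a mean of 83.6 in NCD vehicle to 6.59 under HFD-STZ vehicle and 15.5 with HFD-STZ DHZ, while Pvalb over Slc12a3 goes from 0.915 to 1.73 and 4.30.

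Trpv5, the apical calcium entry channel, was a low transcript. It was at 3.74, 4.57 and 3.96 CPM in NCD vehicle 1 to 3, at 1.14, 2.43 and 2.77 in HFD-STZ vehicle 1 to 3 and at 6.20, 4.12 and 6.92 in HFD-STZ DHZ 1 to 3. The HFD-STZ vehicle libraries were the 3 lowest, and HFD-STZ DHZ and NCD vehicle overlapped. Trpv5 rose in HFD-STZ DHZ against HFD-STZ vehicle by 1.45 on the log2 scale (SE 0.33, edgeR adjusted p = 0.0122), from a mean of 2.11 ± 0.860 to 5.75 ± 1.46 CPM (SD, n = 3 each). HFD-STZ vehicle against NCD vehicle gave -0.96 (SE 0.34, edgeR adjusted p = 0.547) and HFD-STZ DHZ against NCD vehicle 0.49 (SE 0.31, edgeR adjusted p = 0.306). The HFD-STZ vehicle levels rest on 18 to 69 counts, and without HFD-STZ DHZ 1 the rise was no longer called (edgeR adjusted p = 0.051). Without HFD-STZ vehicle 2 it was 1.53 (edgeR adjusted p = 0.019), and over 14 alternative settings the adjusted p was 9.1e-05 to 0.051.

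Slc8a1 encodes the sodium-calcium exchanger NCX1, through which calcium leaves the cell, and is also expressed outside the tubule. It was at 156, 129.6 and 128 CPM in NCD vehicle 1 to 3 and at 131, 134 and 155 CPM in HFD-STZ vehicle 1 to 3. It was at 65.4, 95.3 and 84.8 CPM in HFD-STZ DHZ 1 to 3, below every library of the other groups. Its level was nearly the same in NCD vehicle and HFD-STZ vehicle, with a log2 difference of 0.02 (SE 0.23, edgeR adjusted p = 0.988), and fell by 0.77 (SE 0.23, edgeR adjusted p = 0.0333) in HFD-STZ DHZ against HFD-STZ vehicle. Against NCD vehicle HFD-STZ DHZ fell by 0.75 (SE 0.23, edgeR adjusted p = 0.0489), a call lost in 10 of 14 settings, those without any 1 of the libraries of these 2 groups among them. The fall against HFD-STZ vehicle was lost in 8 of 14 alternative settings, among them without NCD vehicle 2 or 3, without HFD-STZ vehicle 3 and without any 1 of the HFD-STZ DHZ libraries, and its sign turned in 1 of the others, library size as the only scaling (0.00917). Slc8a1 shares 1.57% of its exon bases with an antisense gene, and how strand was used in counting is not given.

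In the treatment comparison, HFD-STZ DHZ against HFD-STZ vehicle, 4 of the 10 members were called, Trpv5 higher and Slc8a1, Trpm6 and Wnk1 lower, beside 22.1% of all genes tested. Between these groups 5 members did not overlap, against 39.8% of all genes, and the members' median log2 fold change was 0.0964 beside 0.042 over all genes. HFD-STZ DHZ against NCD vehicle also called 4 of 10, Pvalb higher and S100g, Calb1 and Slc8a1 lower, beside 13.7% of all genes, and 6 members did not overlap against 44.1% of all genes. There the members' median was -0.196 beside 0.0058 over all genes. With 10 members these counts are small: without HFD-STZ DHZ 2 or without HFD-STZ DHZ 3 only 1 member was called in the treatment comparison, and without NCD vehicle 1, HFD-STZ DHZ 1 or HFD-STZ DHZ 2 only 1 in HFD-STZ DHZ against NCD vehicle. Malat1, a nuclear noncoding RNA, was at 15330 to 47780 CPM in NCD vehicle, 32990 to 96810 (highest in HFD-STZ vehicle 2) in HFD-STZ vehicle and 9298 to 15060 in HFD-STZ DHZ. It was thus lower in every HFD-STZ DHZ library than in every HFD-STZ vehicle library. The members Slc8a1, Trpm6, Wnk1 and Slc12a3 had this order too. So did Atp2b1, Atp2b4, Vdr, Wnk4, Tfap2b and Sall3, described below. The opposite order, each HFD-STZ DHZ library above every HFD-STZ vehicle library, was that of the member Trpv5 and of Kl, Arl15, Egfr, Cldn16, Cul3, Nr3c2, Kcnj1 and Umod. The part of Malat1 in the values of any of these genes was not tested. The 3 comparisons share libraries in pairs, so their values are given side by side and not as independent results.

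**Figure D3:**
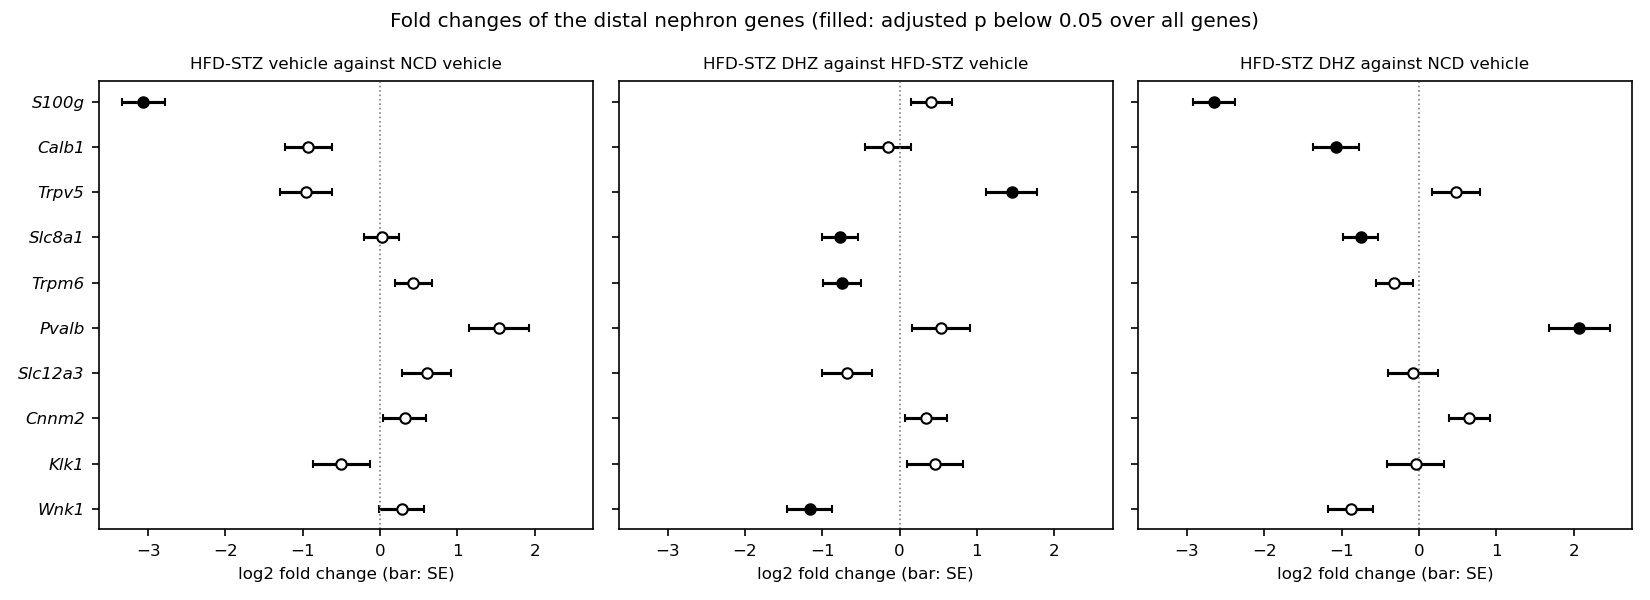
log2 fold change of each of the 10 genes in each of the 3 comparisons (x axis, log2 units; bars are 1 SE; filled points have an edgeR adjusted p below 0.05). In HFD-STZ vehicle against NCD vehicle only S100g, at -3.06, is filled, and in HFD-STZ DHZ against HFD-STZ vehicle Trpv5, Slc8a1, Trpm6 and Wnk1 are.

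Trpm6, the apical magnesium channel of the distal convoluted tubule, was at 14.1, 13.3 and 10.4 CPM in NCD vehicle 1 to 3. It was at 14.4, 16.9 and 19.4 CPM in HFD-STZ vehicle 1 to 3 and at 13.6, 8.55 and 8.11 CPM in HFD-STZ DHZ 1 to 3. The HFD-STZ vehicle libraries were the 3 highest, with NCD vehicle 1 and HFD-STZ DHZ 1 close below them and the other 2 HFD-STZ DHZ libraries lowest of all. Trpm6 fell by 0.75 on the log2 scale (SE 0.24, edgeR adjusted p = 0.0442) in HFD-STZ DHZ against HFD-STZ vehicle. The difference of HFD-STZ vehicle from NCD vehicle was 0.43 (SE 0.24, edgeR adjusted p = 0.722) and that of HFD-STZ DHZ from NCD vehicle -0.32 (SE 0.24, edgeR adjusted p = 0.388). The call was lost in 9 of 14 alternative settings, among them without NCD vehicle 2 or 3, HFD-STZ vehicle 3, HFD-STZ DHZ 2 or HFD-STZ DHZ 3 and without HFD-STZ vehicle 2 (-0.744, edgeR adjusted p = 0.063; 0.022 to 0.95 over the 14), and the sign turned with library size as the only scaling (0.0625).

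Cnnm2, a basolateral membrane protein needed for magnesium reabsorption, was at 3.05, 5.40 and 4.65 CPM in NCD vehicle 1 to 3. It was at 4.12, 4.99 and 7.14 CPM in HFD-STZ vehicle 1 to 3 and at 7.67, 6.35 and 6.69 CPM in HFD-STZ DHZ 1 to 3. HFD-STZ DHZ lay above NCD vehicle without overlap, and HFD-STZ vehicle overlapped both. No difference was called: HFD-STZ vehicle against NCD vehicle was 0.32 (SE 0.27, edgeR adjusted p = 0.80), HFD-STZ DHZ against HFD-STZ vehicle 0.34 (SE 0.27, edgeR adjusted p = 0.384) and HFD-STZ DHZ against NCD vehicle 0.65 (SE 0.27, edgeR adjusted p = 0.116).

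Pvalb encodes parvalbumin, a cytosolic calcium buffer that in the kidney marks the early distal convoluted tubule. It was at 3.69, 5.57 and 3.81 CPM in NCD vehicle 1 to 3, at 10.1, 7.28 and 19.9 in HFD-STZ vehicle 1 to 3 and at 22.0, 22.8 and 10.2 in HFD-STZ DHZ 1 to 3. All 6 diabetic libraries lay above the 3 NCD vehicle libraries, the opposite order to the calbindins. Pvalb rose by 2.07 on the log2 scale (SE 0.39, edgeR adjusted p = 0.0115) in HFD-STZ DHZ against NCD vehicle, a call lost without NCD vehicle 1, without HFD-STZ DHZ 1, without HFD-STZ DHZ 2 and with library size as the only scaling. In HFD-STZ vehicle against NCD vehicle the difference of 1.53 (SE 0.39, edgeR adjusted p = 0.298) was not called by edgeR, but was by DESeq2, and also by edgeR with no filter on low counts. The difference between the diabetic groups was 0.54 (SE 0.38, edgeR adjusted p = 0.315). Parvalbumin is also abundant in fast muscle, and of 5 muscle markers Ckm had 0 counts in all 9 libraries, which allows up to 0.0463 to 0.405 CPM, while Acta1 had at most 3 counts, Myh4 at most 1, Tnnt3 at most 2 and Mylpf 1 to 34. These limits cover counting error only.

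Slc12a3 encodes NCC. It was at 439.8, 539 and 435 CPM in NCD vehicle 1 to 3, at 704, 710.4 and 729 in HFD-STZ vehicle 1 to 3 and at 669, 354 and 319 in HFD-STZ DHZ 1 to 3. The HFD-STZ vehicle libraries lay close together above all others, and HFD-STZ DHZ 1 stood nearer to them than to the other HFD-STZ DHZ libraries. No difference was called: HFD-STZ vehicle against NCD vehicle was 0.60 (SE 0.32, edgeR adjusted p = 0.706), HFD-STZ DHZ against HFD-STZ vehicle -0.68 (SE 0.32, edgeR adjusted p = 0.147) and HFD-STZ DHZ against NCD vehicle -0.08 (SE 0.32, edgeR adjusted p = 0.898). With library size as the only scaling the first was -0.147 and the second 0.0816, so neither direction held under both scalings. The third turned positive without NCD vehicle 2 (0.0374), without HFD-STZ DHZ 2 (0.0745) and without HFD-STZ DHZ 3 (0.129).

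Wnk1 encodes a kinase upstream of NCC, and the distal convoluted tubule mainly makes a short form without the kinase domain, which gene counts cannot separate from the full-length form. It was at 350.3, 315 and 261 CPM in NCD vehicle 1 to 3, at 369, 449.8 and 305 in HFD-STZ vehicle 1 to 3 and at 224, 152 and 127 in HFD-STZ DHZ 1 to 3. The HFD-STZ DHZ libraries were the 3 lowest. Wnk1 fell by 1.16 on the log2 scale (SE 0.29, edgeR adjusted p = 0.0176) in HFD-STZ DHZ against HFD-STZ vehicle, from a mean of 375 ± 72.7 to 168 ± 50.4 CPM (SD, n = 3 each), and the difference from NCD vehicle was -0.88 (SE 0.29, edgeR adjusted p = 0.0617). HFD-STZ vehicle against NCD vehicle was 0.28 (SE 0.29, edgeR adjusted p = 0.825). The fall was lost without HFD-STZ DHZ 2, without HFD-STZ DHZ 3 and with library size as the only scaling, and was kept without HFD-STZ vehicle 2 (edgeR adjusted p = 0.036). Over 14 alternative settings the adjusted p was 0.00025 to 0.67.

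Klk1 encodes tissue kallikrein, a protease that connecting tubule cells release into the urine. It was at 463, 727 and 542 CPM in NCD vehicle 1 to 3, at 388, 243 and 591 in HFD-STZ vehicle 1 to 3 and at 694, 593.5 and 393 in HFD-STZ DHZ 1 to 3. The 3 groups overlapped. The log2 differences were -0.50 (SE 0.37, edgeR adjusted p = 0.767) in the diabetic model, 0.46 (SE 0.37, edgeR adjusted p = 0.382) in the treatment comparison and -0.04 (SE 0.37, edgeR adjusted p = 0.953) when HFD-STZ DHZ was set against NCD vehicle. Klk1 belongs to a cluster of near-identical genes, so its counts are uncertain, although its 23 Klk1b relatives together held only 1.14% to 3.42% as many counts as Klk1. Tissue kallikrein is also abundant in salivary gland, and of 4 salivary markers Prol1 and Bpifa2 had 0 counts in all 9 libraries, Smgc had at most 4 and Amy1 had 161 to 424. Amy1 fell in the treatment comparison (from 17.2 to 7.66 CPM, log2 difference -1.16, edgeR adjusted p = 0.0125), and its part in the Klk1 values was not tested.

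Levels between genes were compared as CPM per kilobase of annotated exon, a scale that depends on the annotated length (0.48 kb for S100g and 22.8 kb for Wnk1). In NCD vehicle S100g had the highest level per kilobase, 822 ± 130.1, followed by Klk1 at 536 ± 126 (SD, n = 3 each). Slc12a3 at 42.4, Calb1 at 23.8, Wnk1 at 13.5, Slc8a1 at 7.34 and Pvalb at 4.18 came next, and Trpm6 at 1.63 ± 0.25, Trpv5 at 1.26 ± 0.132 and Cnnm2 at 0.845 ± 0.233 were lowest. Trpm6 and Trpv5 overlapped within 1 SD, and no other neighbours in this order did. In HFD-STZ vehicle Klk1 was first at 378 ± 162 and S100g second at 98.3 ± 19.6, and Pvalb at 11.9 ± 6.37 overlapped Calb1 at 12.5 ± 4.73. In HFD-STZ DHZ Pvalb at 17.6 ± 6.73 had the higher mean of these 2 calcium buffers, beside Calb1 at 11.3 ± 3.49, still within 1 SD of each other.

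Over the 9 libraries the members did not vary as 1 unit. The spread of log2 CPM (SD over the 9 libraries) was 1.46 for S100g, 1.03 for Pvalb and 0.763 for Trpv5, and between 0.421 and 0.637 for the other 7. The likeness of 2 members was measured as the root mean square difference of their log2 CPM after each was centred on its mean, where 0 means the same profile. Trpm6 and Slc12a3 were closest, at 0.185, and Trpm6 and Wnk1 followed at 0.316, against a median of 0.846 over the 45 pairs. Trpm6, Slc12a3 and Wnk1 thus had like profiles, but the likeness did not follow the segment. Slc8a1, also expressed outside the tubule, was at 0.385 from Trpm6 and 0.403 from Wnk1. Pvalb, which marks the early distal convoluted tubule, was at 0.987 from Slc12a3, 1.05 from Trpm6 and 1.32 from Wnk1. The measure also puts genes of small spread close together. S100g and Pvalb, both cytosolic calcium binders, had the widest spread, S100g with its lowest values and Pvalb with its highest in the 6 diabetic libraries. Among 10154 genes compared by the same measure over the 9 libraries, the profiles most like that of S100g were those of Cyp2d12 (0.601), Mdk (0.642), Halr1 (0.719), Fam151a (0.737) and Abcc6 (0.758), where the median gene was at 1.44. Mdk, the growth factor midkine, averaged 11.3 CPM in NCD vehicle, 2.87 under HFD-STZ vehicle and 4.46 with HFD-STZ DHZ, and Abcc6, an ABC transporter, 5.54, 2.01 and 1.86. Cyp2d12 has near-identical relatives, so its counts are uncertain.

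The other genes of these pathways were taken from 7 lists with 48 genes, of which 46 were tested. In the diabetic model 0 of the 46 were called by edgeR, beside 0.0524% of all genes. An unadjusted p below 0.05 was found for 7 of the 46, beside 1276 of all 17179 genes, and DESeq2 called 3 of them, Cyp24a1, Tfap2b and Vdr, beside 126 genes in all. In HFD-STZ DHZ against HFD-STZ vehicle 7 were higher and 4 lower, 23.9% of the 46 beside 22.1% of all genes. In HFD-STZ DHZ against NCD vehicle 6 were higher and 3 lower, 19.6% beside 13.7%. The median log2 fold changes of the 46 were -0.0384, 0.0143 and 0.227, beside -0.0031, 0.042 and 0.0058 over all genes. These counts turn on single libraries: without HFD-STZ DHZ 2 the treatment comparison called 3 of these genes, and without NCD vehicle 1 or HFD-STZ DHZ 1 HFD-STZ DHZ against NCD vehicle called 0.

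Genes of the vitamin D axis, a known inducer of S100g, are given next, and their part in the S100g values was not tested. Cyp24a1, the enzyme that inactivates vitamin D and is itself induced through the receptor, was at 8.07, 5.03 and 7.92 CPM in NCD vehicle 1 to 3. It was at 22.2, 94.0 and 136 CPM in HFD-STZ vehicle 1 to 3 and at 96.3, 23.7 and 76.7 CPM in HFD-STZ DHZ 1 to 3. Every diabetic library was above every NCD vehicle library, the opposite order to S100g. Cyp24a1 rose in HFD-STZ DHZ against NCD vehicle by 3.22 on the log2 scale (SE 0.70, edgeR adjusted p = 0.0222), a call lost without any 1 of the 3 NCD vehicle libraries and without HFD-STZ DHZ 1. HFD-STZ vehicle against NCD vehicle gave 3.58 (SE 0.71, edgeR adjusted p = 0.183), not called. The difference between the diabetic groups was -0.36 (SE 0.64, edgeR adjusted p = 0.715). Vdr, the vitamin D receptor, was at 52.6, 46.7 and 43.8 CPM in NCD vehicle 1 to 3, at 83.4, 113 and 152 in HFD-STZ vehicle and at 75.9, 66.0 and 76.2 in HFD-STZ DHZ. Its HFD-STZ vehicle libraries were the 3 highest, with a log2 difference from NCD vehicle of 1.28 (SE 0.25, edgeR adjusted p = 0.111), the lowest p of its list in that comparison. Kl, which encodes klotho, a coreceptor of the phosphate hormone FGF23 in the distal tubule, rose in HFD-STZ DHZ against HFD-STZ vehicle by 1.09 (SE 0.30, edgeR adjusted p = 0.0244), from 34.3 to 73.1 CPM, and lost the call without HFD-STZ vehicle 1 or 2 or any 1 of the HFD-STZ DHZ libraries.

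On the calcium exit side, Atp2b1, a plasma membrane calcium pump, fell in HFD-STZ DHZ against HFD-STZ vehicle by 0.93 (SE 0.23, edgeR adjusted p = 0.0164), from 151 to 79.0 CPM, along with the exchanger Slc8a1. It lost the call without HFD-STZ DHZ 1, without HFD-STZ DHZ 2 and with library size as the only scaling. Atp2b4, the second pump on the list, had the lowest p of its list in HFD-STZ DHZ against NCD vehicle and was not called (-0.61, edgeR adjusted p = 0.0833).

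Among 12 further genes of magnesium transport and its control, 2 rose in the treatment comparison and none was called lower, 16.7% beside 22.1% of all genes. Arl15, a small GTPase that acts on magnesium transporters, rose by 1.30 (SE 0.30, edgeR adjusted p = 0.0116), and Egfr, the receptor of the growth factor that raises TRPM6 activity, by 0.88 (SE 0.21, edgeR adjusted p = 0.014). Both were also higher in HFD-STZ DHZ than in NCD vehicle, by 1.16 (edgeR adjusted p = 0.0242) and 0.81 (edgeR adjusted p = 0.0278). Arl15 kept this call in 8 of 14 alternative settings and Egfr in 7. Without HFD-STZ DHZ 2 neither was called in the treatment comparison (edgeR adjusted p = 0.056 for each). Cldn16, a tight junction protein of the paracellular magnesium and calcium route in the thick ascending limb, rose by 1.24 (SE 0.32, edgeR adjusted p = 0.0185) from 1.19 to 1.69 CPM in the HFD-STZ vehicle libraries to 2.76 to 3.90 in HFD-STZ DHZ. Against NCD vehicle Cldn16 was higher by 1.00 (edgeR adjusted p = 0.0457), a call kept in 6 of 14 alternative settings. The treatment call was kept in 10 of 14 and lost without HFD-STZ vehicle 1, HFD-STZ DHZ 1 or HFD-STZ DHZ 2 and with library size as the only scaling. The summed thick ascending limb markers, Cldn16 among them, overlapped between the groups. Of the 5 markers, Cldn16 and Kcnj1 were called higher in the treatment comparison. Umod went from 313 to 897 CPM (edgeR adjusted p = 0.05, not called) and Cldn10 from 51.9 to 64.95 (edgeR adjusted p = 0.38). Slc12a1 went from 750.4 to 709 (edgeR adjusted p = 0.913), with HFD-STZ vehicle 2 at 1232 CPM. The part of this cell type in the Cldn16 rise was not tested. Cnnm4 and Cldn19 had the lowest p of their lists in the diabetic model, with -0.72 (edgeR adjusted p = 0.734) and 0.53 (edgeR adjusted p = 0.713).

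Of 11 genes that control NCC, Cul3, the ubiquitin ligase scaffold that with KLHL3 removes WNK kinases, was at 13.1, 21.9 and 18.9 CPM in HFD-STZ vehicle 1 to 3 and at 46.5, 44.3 and 37.1 in HFD-STZ DHZ 1 to 3. NCD vehicle lay between 17.9 and 22.0 CPM, so the HFD-STZ DHZ libraries stood clear of all others. Cul3 rose by 1.25 (SE 0.23, edgeR adjusted p = 0.00577) against HFD-STZ vehicle, a call kept in all 14 alternative settings. Against NCD vehicle it rose by 1.07 (SE 0.22, edgeR adjusted p = 0.015), a call kept in 10 of 14. Wnk4, the kinase that governs NCC together with WNK1, fell by 0.83 (SE 0.26, edgeR adjusted p = 0.0393) against HFD-STZ vehicle and by 1.05 (SE 0.26, edgeR adjusted p = 0.0243) against NCD vehicle. Nr3c2, the mineralocorticoid receptor, rose by 1.14 against HFD-STZ vehicle (SE 0.34, edgeR adjusted p = 0.0308), a call kept in 9 of 14 alternative settings. It was lost without HFD-STZ vehicle 2, which held 13 counts, and without HFD-STZ vehicle 3, HFD-STZ DHZ 1 or HFD-STZ DHZ 2. Library size as the only scaling also lost it. Klhl3, the adaptor that binds WNK kinases to CUL3, fell by 0.92 (SE 0.23, edgeR adjusted p = 0.0244) in HFD-STZ DHZ against NCD vehicle, and in the diabetic model it gave -0.64 (edgeR adjusted p = 0.555). The Wnk4 calls were kept in 5 and 6 of 14 alternative settings, and the Klhl3 call in 7.

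Kcnj1, the potassium channel ROMK of the thick ascending limb and the distal nephron, rose by 1.15 (SE 0.37, edgeR adjusted p = 0.0423) against HFD-STZ vehicle and by 1.27 (SE 0.37, edgeR adjusted p = 0.0395) against NCD vehicle, with HFD-STZ DHZ 1 and 2 at 160 and 144 CPM and HFD-STZ DHZ 3 at 67.1. Within each group Kcnj1 was lowest in the libraries with Y-linked transcripts. Besides HFD-STZ DHZ 3, these were NCD vehicle 1 at 27.6 CPM (65.1 and 61.2 in the others) and HFD-STZ vehicle 2 and 3 at 54.0 and 50.2 (63.7 in HFD-STZ vehicle 1). Kcnma1, the large-conductance potassium channel, fell by 1.43 (SE 0.42, edgeR adjusted p = 0.0412) in HFD-STZ DHZ against NCD vehicle on 12 to 59 counts a library, and its difference in the diabetic model was -0.97 (edgeR adjusted p = 0.668). These calls were kept in 6 or 7 of 14 alternative settings each. The transcription factor Tfap2b, which marks the distal tubule, was at 94.2, 94.4 and 81.4 CPM in NCD vehicle 1 to 3, at 176, 294 and 126 in HFD-STZ vehicle and at 60.4, 54.2 and 50.3 in HFD-STZ DHZ. The 3 groups did not overlap, with HFD-STZ vehicle highest and HFD-STZ DHZ lowest. Tfap2b fell by 1.85 (SE 0.30, edgeR adjusted p = 0.00417) in HFD-STZ DHZ against HFD-STZ vehicle, kept in 13 of 14 alternative settings and lost with library size as the only scaling, and the difference in the diabetic model was 1.14 (SE 0.29, edgeR adjusted p = 0.306). Sall3, another factor of the list, fell by 1.18 (SE 0.26, edgeR adjusted p = 0.0109) against HFD-STZ vehicle, also lost only with library size as the scaling, and gave -0.80 (edgeR adjusted p = 0.0595) against NCD vehicle.

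**Figure D4:**
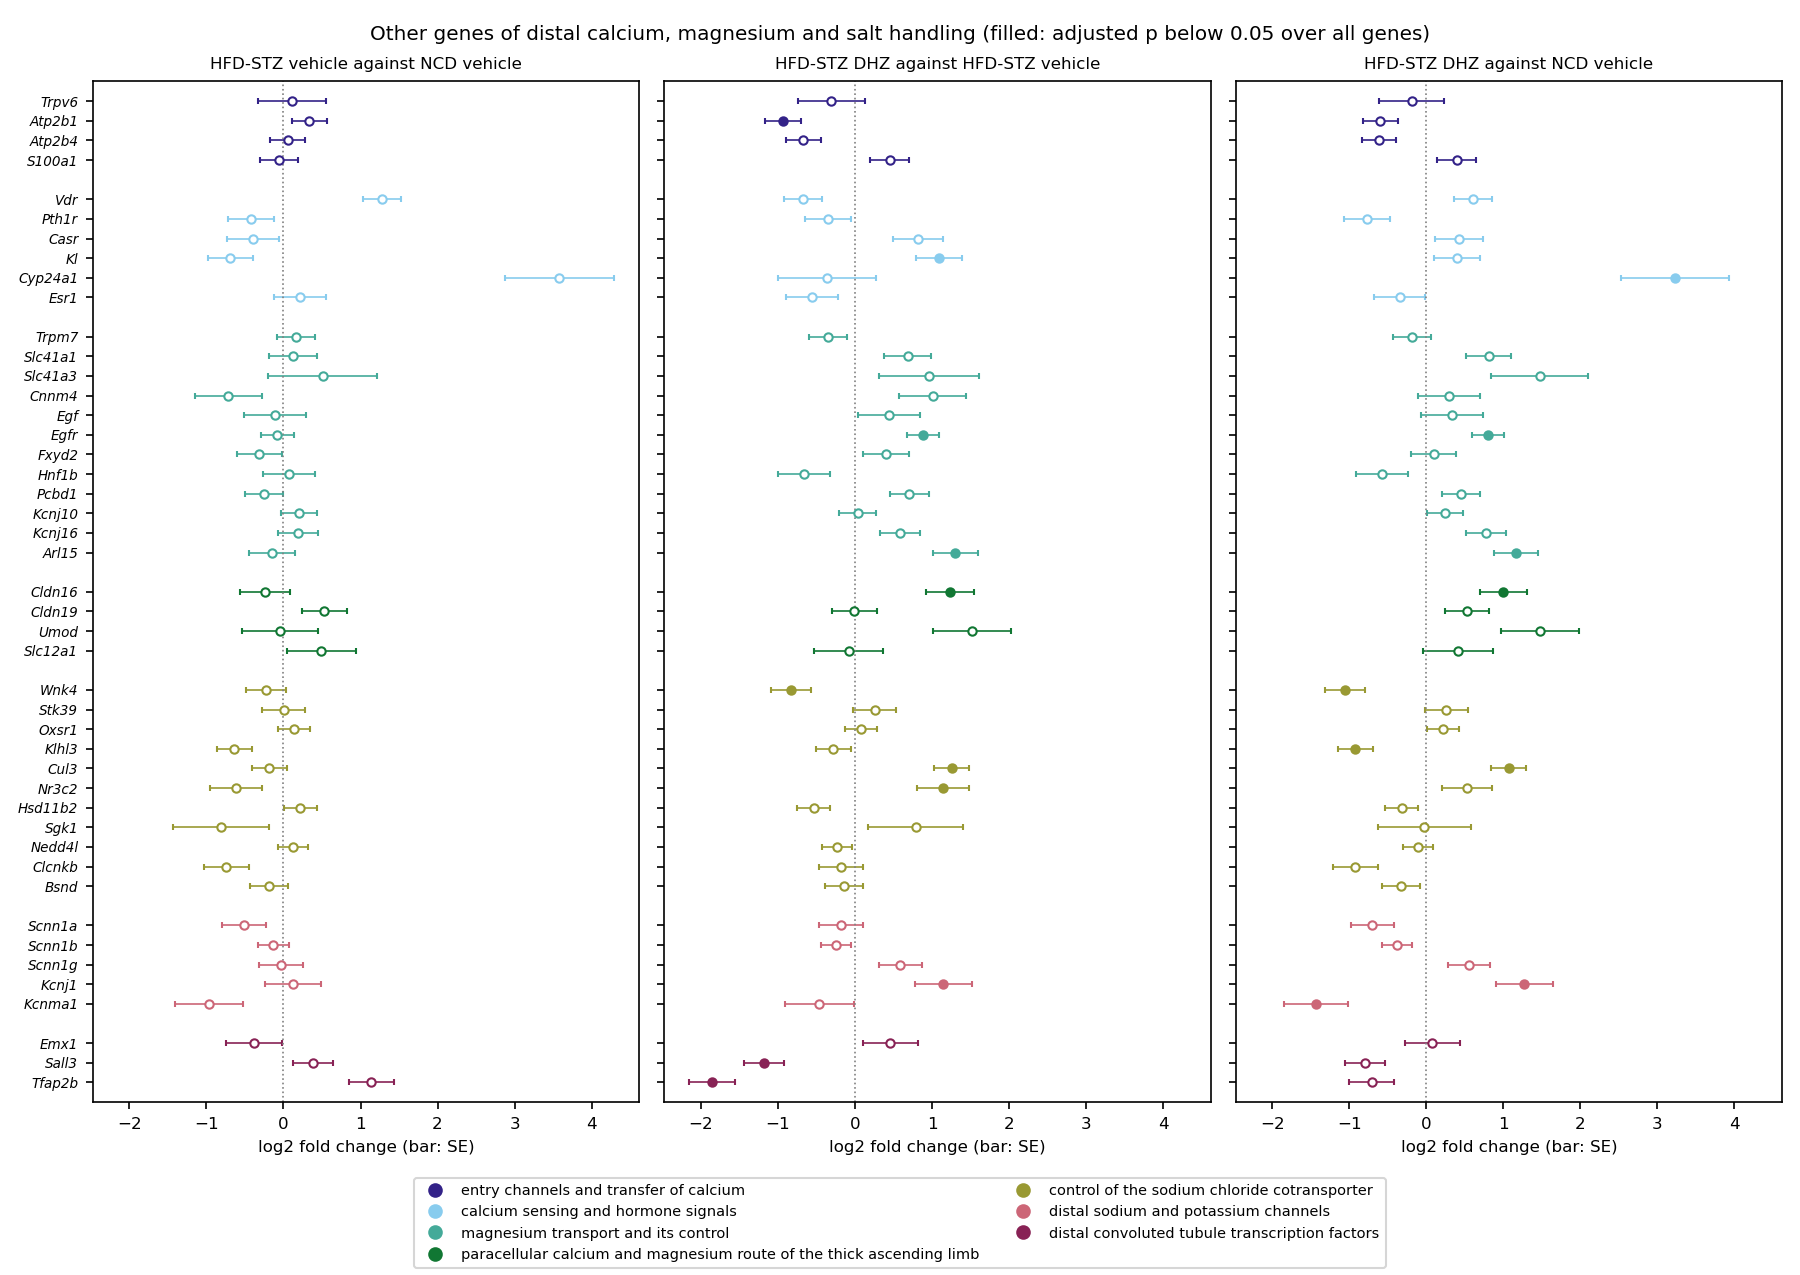
log2 fold changes of other genes of the pathway lists, grouped and coloured by list, in each of the 3 comparisons (x axis in log2 units; bars are 1 SE; filled points have an edgeR adjusted p below 0.05). No gene is filled in HFD-STZ vehicle against NCD vehicle, and in HFD-STZ DHZ against HFD-STZ vehicle 7 are filled above 0 and 4 below, with Tfap2b lowest at -1.85.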

How the data were processed

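Polyadenylated RNA of mouse kidney was sequenced in 9 stranded libraries, per the labels' protocols. The authors deposited raw counts per gene for 55359 Ensembl genes in 1 table. It has 0 further columns of sample values. Per the submitters' processing notes, the tools were STAR, Trim Galore and FastQC and the build was GRCm39. The sources used here give no versions and no strand or multiple-mapping settings of the counting.

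The tests used edgeR 4.0.16 under R 4.3.3. Genes passing filterByExpr (17179) entered 1 robust quasi-likelihood fit over all 9 libraries, with TMM scaling, group as the only term and Benjamini-Hochberg adjustment over all genes. Genes with an adjusted p below 0.05 were called. Tests are two-sided, and standard errors were derived from the F statistic. The alternatives were DESeq2 1.42.0, no filter, library size only, replicate number as a block, a term for Y-linked transcripts, and leaving out each of the 9 libraries, 14 in all.

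The members and lists were chosen with earlier results of these data known. All 10 members are named in every comparison. From each list up to 4 called genes with the lowest p are named per comparison, or the 1 gene with the lowest p where none was called, besides the 5 genes most like S100g among genes whose mean log2 CPM was 1 or more. For 1 gene of the lists, values are not reported here. Symbols were matched on Ensembl identifiers for 94.1% of genes. Exon lengths come from GENCODE M21, an older build.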

Additional observations from a re-analysis of the deposited data

How the results depend on the processing

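The S100g call was kept under all 14 alternatives in HFD-STZ vehicle against NCD vehicle (-3.84 to -2.94) and in HFD-STZ DHZ against NCD vehicle (-2.81 to -2.50, adjusted p up to 0.033). In HFD-STZ vehicle against NCD vehicle, genes called went from 9 to 126 with DESeq2, 425 with no filter, 29 with library size only, 2 with the replicate block and 42 with a term for Y-linked transcripts, and to 2 to 28 without single libraries. Members called there went from 1 to 2 with DESeq2 and with no filter (Pvalb added) and stayed at 1 without any single library. Other pathway genes called went from 0 to 3 with DESeq2, 3 with no filter and 1 with library size only, and to 0 to 2 without single libraries. In HFD-STZ DHZ against HFD-STZ vehicle, genes called went from 3796 to 888 with library size only and 2159 with the replicate block, and to 1149 to 4086 without single libraries. Of those calls 45.5% were higher with TMM scaling and 93.7% with library size only, which moved the median of all genes from 0.042 to 0.807 there. Members called went from 4 to 2 with no filter, 1 with library size only and 2 with the replicate block (Trpv5 and Wnk1), and to 1 to 4 without single libraries. Other pathway genes called went from 11 to 17 with DESeq2 and 5 with library size only, and to 3 to 15 without single libraries. In HFD-STZ DHZ against NCD vehicle, genes called went from 2352 to 3530 with DESeq2, 36 with library size only, 772 with the replicate block and 3617 with the Y-linked term, and to 112 to 3706 without single libraries. Members called went from 4 to 1 with library size only and 2 with the replicate block (S100g and Pvalb), and to 1 to 5 without single libraries. Other pathway genes called went from 9 to 15 with DESeq2, 1 with library size only, 2 with the replicate block and 14 with the Y-linked term, and to 0 to 17 without single libraries. Signs that turned, none of them of a called value except Slc8a1 and Trpm6 in the treatment comparison, were these. In HFD-STZ vehicle against NCD vehicle Slc8a1 was -0.00714 with no filter, -0.682 with library size only, -0.031 with the Y-linked term and -0.0616 to 0.115 without single libraries. With library size only Trpm6 was -0.309, Slc12a3 -0.147, Cnnm2 -0.562 and Wnk1 -0.46 there, and in HFD-STZ DHZ against HFD-STZ vehicle Calb1 was 0.576, Slc8a1 0.00917, Trpm6 0.0625 and Slc12a3 0.0816. Calb1 there ranged from -0.388 to 0.205 without single libraries. In HFD-STZ DHZ against NCD vehicle Klk1 was 0.0172 with no filter and -0.217 to 0.168 without single libraries, and Slc12a3 ranged from -0.477 to 0.129 without single libraries. The cause of these shifts was not tested. Replicate numbers did not pair the libraries: the deviations of 9 same-numbered pairs correlated from -0.41 to 0.22, 3 of them above 0.1, and 1 of 9 libraries correlated best with its own number. The deviations did follow the Y-linked transcripts. Pairs from different groups that both had or both lacked these transcripts correlated from 0.11 to 0.5. Pairs in which only 1 library had them correlated from -0.41 to -0.028. Depth limits Trpv5, Cnnm2 and Pvalb most, with 18, 37 and 54 counts in HFD-STZ vehicle 2.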
